A study of Rattus norvegicus with 15 samples.

Results

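Known targets of the miR-17 microRNA family that act outside the cell cycle, 8 in number, were followed in rat islet cells: Ulk1 and Sqstm1 in autophagy, Fyco1, Gpr137b and Lima1 in vesicle traffic, lysosomes and the actin cytoskeleton, Arid4b and Zbtb4 in chromatin, and the kinase gene Mapk9. They were taken by gene symbol from a list of 8 targets by a rule that uses no measured value, though earlier results of these data were known when the list was made, and 7 of them were found among the 17055 genes of the count tables. Zbtb4, which encodes a repressor that binds methylated DNA, is not analysed here. The cells came from islets of Sprague-Dawley rats aged 10 days, which the labels also give as 1.5 weeks. The islets were dispersed and the cells transfected with a control microRNA mimic or with miR-17-5p. Each treatment gave mRNA libraries, made from polyadenylated RNA, and RISC libraries, made from RNA that came down with an antibody against Ago2, a core protein of the RNA-induced silencing complex (RISC). Of the 15 libraries, mRNA libraries numbered 3 for control and 5 for miR-17-5p, and RISC libraries 3 for control and 4 for miR-17-5p. No genotype other than the strain is given, and the labels do not say how many animals stood behind a library or which share of the cells took up the mimic.

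A microRNA guides Argonaute proteins such as Ago2 to messenger RNAs that pair with it, mostly through the seed near its 5′ end, and these messages are then translated less or degraded. Members of the miR-17 family share a seed, come from several related gene clusters and are best known for promoting proliferation. Autophagy, in which a membrane closes around cell contents and fuses with the lysosome, also consumes insulin granules and damaged organelles in islet cells. ULK1 is the kinase that starts this process. SQSTM1, also called p62, is a receptor that carries tagged cargo into the forming membrane. FYCO1 links late endosomes and autophagosomes to kinesin motors, and GPR137B is a lysosomal membrane protein that acts on the growth kinase complex mTORC1.

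The mature sequences of the family are shown because the mimic and the rat's own family members share the bases through which targets are recognised. Capitals mark the seed, bases 2 to 8 from the 5′ end. Sequences are from RefSeq on the rat assembly GRCr8, in which miR-17-5p is read from chr15:98587861-98587883 on the plus strand and, as the same sequence, from the Mir106a locus on the X chromosome.
rno-miR-17-5p: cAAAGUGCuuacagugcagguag
rno-miR-20a-5p: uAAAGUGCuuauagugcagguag
rno-miR-20b-5p: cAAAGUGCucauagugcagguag
rno-miR-93-5p: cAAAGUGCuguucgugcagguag
rno-miR-106b-5p: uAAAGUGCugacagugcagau

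Of 693 mature rat names in the RefSeq table, 5 carried this seed. With positions counted from 1 at the 5′ end and the base of miR-17-5p written first, miR-20a-5p differed by C1U and C12U, miR-20b-5p by U10C and C12U, and miR-93-5p by U10G, A11U, C12U and A13C. None of these changes lay in the seed. A message with a full seed match holds GCACUUU. Whether the 7 rat messages hold this match was not analysed here.

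Libraries held 3379456 to 21056240 counts in mRNA and 4185123 to 13420403 in RISC. The RISC libraries of control cells stood apart from all others, with 5589 to 7424 genes that had a count, against 9040 to 10753 in miR-17-5p RISC and 11142 to 12997 in mRNA libraries. Of the 9443 genes tested in RISC, 53.1% had 0 counts in at least 1 control RISC library and 14.2% in at least 1 miR-17-5p RISC library. Control RISC library 3 had the fewest genes of all 15 libraries and the lowest total among RISC libraries. Markers of beta cells were detected in every group for all 9 of their genes in the tables, as were those of alpha, delta and PP cells, which also numbered 9. Markers of stellate cells and fibroblasts, 17 genes, were also present and are given beside Lima1. Deviations of libraries with the same number in different groups correlated at -0.179 to 0.0488, which cannot exclude shared cultures in groups this small. The labels do not tie them to shared animals. The p-values below treat libraries as unpaired and speak of the spread among these libraries alone, part of which may be technical.

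The first question was which targets the added microRNA changed in polyadenylated RNA. Lima1 rose, Sqstm1 and Ulk1 had lower values in every miR-17-5p library than in any control library without passing the test, and Fyco1, Gpr137b and Mapk9 overlapped between the groups. Of the 6 targets tested, 1 was called at an adjusted p under 0.05 in edgeR's quasi-likelihood test, where 3.87% of 11077 genes were called. Genes called higher made up 3.11% and genes called lower 0.767%. Groups that did not overlap were found for 2 targets in the lower direction, against 6.68% of all genes, and for 1 in the higher direction, against 8.51%. The median log2 fold change of the 6 targets was -0.21, beside 0.01 for all genes tested. In such bulk samples fewer cells of a type and less RNA per cell cannot be told apart. Levels are given in CPM, counts scaled to library size within each comparison, log2 fold changes are given with their standard error, and groups as mean ± SD.

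Ulk1, the autophagy starting kinase, measured 52.5, 57.4 and 58 CPM in control mRNA libraries 1, 2 and 3. In miR-17-5p mRNA libraries 1, 2, 4, 5 and 6 it measured 44.9, 49.1, 48.5, 40.3 and 45.3 CPM. The highest miR-17-5p value was below the lowest control value. The means were 56 ± 3.03 and 45.6 ± 3.51 CPM (SD, n = 3 and 5), a log2 fold change of -0.29 ± 0.14 with an edgeR adjusted p of 0.261. Before adjustment the p was 0.0492.

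Sqstm1, the cargo receptor p62, was at 574, 491 and 545 CPM in the control mRNA libraries. The miR-17-5p mRNA libraries, in the order 1, 2, 4, 5 and 6, were at 470, 364, 368, 449 and 388 CPM. All 5 lay below the 3 controls. The level was 1.32-fold lower, from 537 ± 42.3 to 408 ± 48.7 CPM, with a log2 fold change of -0.40 ± 0.13, a 95% interval of -0.68 to -0.11 and an edgeR adjusted p of 0.118. DESeq2's Wald test called it (-0.41, adjusted p = 0.0224), and so did edgeR without miR-17-5p library 1 (-0.45, adjusted p = 0.0466).

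In mRNA, beta cell markers lay on the same side as Ulk1 and Sqstm1. All 9 tested had a log2 fold change below 0 in mRNA, with a median of -0.48, and 8 of 9 in RISC, with a median of -0.78. In mRNA edgeR called 0 of them, 4 had an unadjusted p under 0.05, DESeq2's Wald test called 3 lower and limma-voom 4. In RISC edgeR called 0, with 5 at an unadjusted p under 0.05, DESeq2 called 3 lower and limma-voom 0. Over all genes, 2100 of 11077 in mRNA and 1899 of 9443 in RISC had an unadjusted edgeR p under 0.05. The summed level of beta cell markers was 364983 to 441422 CPM in control and 257524 to 477377 CPM in miR-17-5p mRNA libraries. The highest value belonged to miR-17-5p library 1. This side was not particular to beta cells. In mRNA 8 of 9 alpha, delta and PP cell markers lay below 0 (median -0.57), with 2 called lower in edgeR. Of the endothelial markers, 6 of 8 lay below 0 (median -0.68), also with 2 called lower. Stellate cell and fibroblast markers lay above 0 for 15 of 16 and macrophage and leukocyte markers for 11 of 11. The part of these markers in the Ulk1 and Sqstm1 values was not tested.

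Fyco1, the kinesin adaptor, measured 47.6, 42 and 39 CPM in control mRNA. The miR-17-5p mRNA libraries gave 37.7, 28.4, 41.1, 32.9 and 38.5 CPM. Only miR-17-5p library 4 reached into the control range. The log2 fold change was -0.27 ± 0.16 (95% interval -0.62 to 0.09, edgeR adjusted p = 0.417).

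Gpr137b, the lysosomal protein, was the lowest of the 6 in counts, 25 to 92 in control and 43 to 122 in miR-17-5p mRNA libraries. It measured 4.32, 11.4 and 7.8 CPM in control and 6.57, 5.13, 8.67, 7.25 and 7.54 CPM in miR-17-5p mRNA libraries. The miR-17-5p values lay inside the control range, and the log2 fold change of -0.16 had a 95% interval of -0.94 to 0.63 (edgeR adjusted p = 0.858). Without control library 2 the sign turned, to 0.25.

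Mapk9 encodes JNK2, a stress-activated kinase. It measured 25.7, 21.4 and 12.2 CPM in control and 28.8, 14.6, 21.5, 21.4 and 30.9 CPM in miR-17-5p mRNA libraries. The ranges overlapped, and the log2 fold change was 0.23 ± 0.28 (95% interval -0.38 to 0.83, edgeR adjusted p = 0.72). Its sign also turned under 2 alternatives, both given in the closing section.

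Lima1 encodes EPLIN, a LIM domain protein that crosslinks actin filaments and slows their turnover. It was at 105, 86.2 and 103 CPM in control mRNA libraries. In miR-17-5p mRNA libraries 1, 2, 4, 5 and 6 it was at 114, 149, 216, 163 and 171 CPM. Library 1 stood just above the controls and library 4 highest. The mean rose from 98 ± 10.2 to 163 ± 37.2 CPM, 1.66-fold, with a log2 fold change of 0.73 ± 0.18 (95% interval 0.34 to 1.12, edgeR adjusted p = 0.0406). MicroRNA targets are known for a fall in level, and Lima1 moved the other way. The call was lost when any of the 3 control libraries or miR-17-5p library 4, 5 or 6 was left out, with adjusted p values of 0.0798 to 0.193 and log2 fold changes of 0.61 to 0.79.

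Arid4b, a subunit of the SIN3 histone deacetylase complex, was too low to be tested in mRNA. It had 2 counts in control mRNA library 2 and 0 in the other control and all 5 miR-17-5p mRNA libraries. In a library of this depth, 3 counts, the limit that a count of 0 allows, correspond to 0.162 to 0.936 CPM. This floor covers counting error only.

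The second comparison asked which targets differed in level in Ago2-bound RNA after miR-17-5p was added. This level can also follow the level in mRNA. Fyco1, Gpr137b and Lima1 had higher values in every miR-17-5p RISC library than in any control RISC library, and edgeR called 0 of the 7 targets tested. In this comparison 0.371% of 9443 genes were called, 0.339% higher and 0.0318% lower. Groups did not overlap in the higher direction for 17.8% of genes and in the lower for 3.19%. At an unadjusted p under 0.05 there were 4 of the 7 targets (Gpr137b, Lima1, Arid4b and Fyco1) and 1899 of all genes. Gpr137b and Arid4b had 0 counts in all control RISC libraries. They passed the filter only through the miR-17-5p group, so their direction was fixed in advance. DESeq2's Wald test called 3 targets, Fyco1, Gpr137b and Lima1, among 1305 genes, and limma-voom with quality weights called 0. The biological coefficient of variation shared by all genes came to 1.23 in RISC and 0.305 in mRNA, so that the same fold change was measured with less precision in RISC.

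Gpr137b had 0 counts in each of the 3 control RISC libraries. In miR-17-5p RISC libraries 2, 4, 5 and 6 it had 230, 138, 177 and 97 counts, or 17.9, 14.4, 19.9 and 16.2 CPM. These values were close to each other, with a mean of 17.1 ± 2.33 CPM (SD, n = 4). Against a floor of 3 counts per control library, which averages 0.381 CPM, Gpr137b was at least 44.9-fold higher with miR-17-5p (edgeR adjusted p = 0.0725). Without control library 2 the adjusted p was 0.0386. The pattern of 0 in all control and above 0 in all miR-17-5p RISC libraries was shared by 591 genes, 6.26% of those tested, and no gene had the reverse pattern. The part that the smaller number of genes in control RISC libraries has in these values was not tested.

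Fyco1 measured 35.3, 28.5 and 23.3 CPM in control RISC libraries 1, 2 and 3. In miR-17-5p RISC libraries 2, 4, 5 and 6 it measured 95, 57.4, 79 and 58.2 CPM. Every miR-17-5p value was above every control value. The means were 29 ± 6.01 and 72.4 ± 18.1 CPM (SD, n = 3 and 4), 2.5-fold apart, with a log2 fold change of 1.32 ± 0.55, a 95% interval of 0.07 to 2.56 and an edgeR adjusted p of 0.209. With DESeq2's Wald test the value was 1.23 (adjusted p = 0.0232), and without control library 3 it was 1.15 in edgeR (adjusted p = 0.195). Macrophage and leukocyte markers, 11 genes, had sums of 0.188 to 122 CPM in control and 268 to 385 CPM in miR-17-5p RISC. Cd14, Lyz2, Tyrobp and Fcer1g were at 0 in control RISC and Aif1 was at 0 in miR-17-5p RISC. Of all genes tested in mRNA, 20.7% were at 0 in all control RISC libraries and 3.06% in all miR-17-5p RISC libraries. In RISC edgeR called 1 of 8 tested markers higher, with 3 at an unadjusted p under 0.05. DESeq2's Wald test called 3 higher and limma-voom 0. The part of these markers in the Fyco1 and Gpr137b values was not tested.

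Lima1 was at 171, 172 and 141 CPM in control RISC libraries. The miR-17-5p RISC libraries were at 336, 366, 307 and 350 CPM. The groups lay far apart relative to their spread, 162 ± 17.5 against 340 ± 25.3 CPM. The log2 fold change was 1.07 ± 0.21, 2.1-fold, with the smallest p of the targets before adjustment, 5.5e-04, and an edgeR adjusted p of 0.0725. It passed with DESeq2's Wald test (adjusted p = 1.5e-05), without control library 2 (0.0386) and without miR-17-5p library 4 (0.0497).

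Sqstm1 gave 211, 215 and 51 CPM in control RISC and 182, 146, 204 and 272 CPM in miR-17-5p RISC libraries. Control library 3 was low and the other 2 control values lay within the miR-17-5p range. The log2 fold change was 0.34 ± 0.47 (edgeR adjusted p = 0.934) and turned to -0.12 without control library 3.

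Ulk1 gave 60.6, 33.5 and 213 CPM in control RISC and 126, 70.6, 99.5 and 48.8 CPM in miR-17-5p RISC libraries. Here control library 3 was the highest of all 7. The log2 fold change of -0.25 ± 0.63 (edgeR adjusted p = 0.981) became 0.84 ± 0.50 without that library (adjusted p = 0.361). The same control library was thus low for Sqstm1 and high for Ulk1.

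Mapk9 had 1122 counts, or 72 CPM, in control RISC library 1 and 0 counts in libraries 2 and 3. The miR-17-5p RISC libraries had 47.7, 53.4, 40.3 and 21.2 CPM. The 95% interval of its log2 fold change ran from -3.75 to 5.26 (edgeR adjusted p = 0.981), so a change in either direction was not detectable at this spread. A count of 0 in exactly 2 control RISC libraries was found for 1823 genes, 19.3% of those tested.

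Arid4b had 0 counts in all 3 control RISC libraries. It had 38, 50, 14 and 0 counts in miR-17-5p RISC libraries 2, 4, 5 and 6, or 2.96, 5.23, 1.57 and 0 CPM. Library 6 thus overlapped with the controls. The mean was at least 6.41-fold higher than the control floor (edgeR adjusted p = 0.129). As Arid4b was nearly absent from mRNA libraries, no level in poly(A) RNA stands beside these values.

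**Figure D1:**
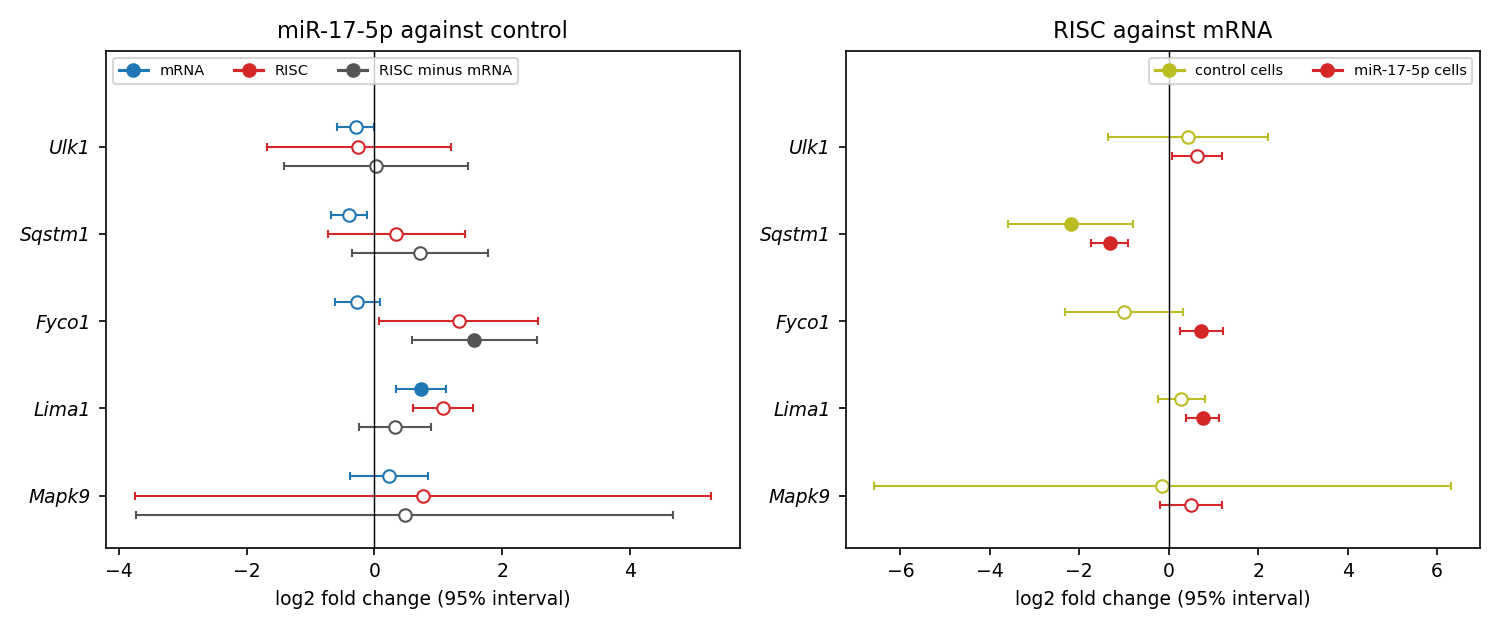
Log2 fold changes (linear axis in log2 units) of 5 targets with 95% intervals: left, miR-17-5p against control in mRNA, in RISC and the difference of both; right, RISC against mRNA in control and in miR-17-5p cells. Filled points passed an adjusted p of 0.05 in edgeR. Gpr137b and Arid4b are left out because they had 0 counts in whole groups. Fyco1 is the only target shown whose difference passed, at 1.56.

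The change in RISC was then compared with the change in mRNA in 1 model of all 15 libraries. The log2 fold changes of Fyco1 and Gpr137b were higher in RISC than in mRNA, and the other 5 targets did not pass the test. These 2 of 7 targets stand beside 13.4% of 11418 genes called, nearly all of them in this direction (13.0% higher and 0.394% lower). All 7 targets had a difference above 0, as had 62.1% of all genes, and the median was 0.71 for the targets and 0.40 for all genes. Arid4b passed the filter only through miR-17-5p RISC libraries, which set its sign. This comparison uses the same libraries as the first and second.

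Fyco1 had a difference of 1.56 ± 0.46 (95% interval 0.58 to 2.54, edgeR adjusted p = 0.0342), with -0.27 in mRNA and 1.32 in RISC as given above. The call was lost without filtering (adjusted p = 0.0549), with limma-voom (0.406) and without miR-17-5p number 1, 2, 5 or 6 (0.0552 to 0.113). Without control number 3 the difference was 1.67 (adjusted p = 0.0236). Gpr137b passed with an edgeR adjusted p of 1.5e-04. In its case a level of 7.85 ± 3.55 and 7.03 ± 1.3 CPM in control and miR-17-5p mRNA stood beside 0 counts and 17.1 ± 2.33 CPM in RISC. The call held in edgeR without each replicate number in turn and was lost with limma-voom (adjusted p = 0.405). With a replicate block neither Fyco1 nor Gpr137b was called.

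For Lima1 the difference was 0.32 ± 0.26, with a 95% interval of -0.24 to 0.89 (edgeR adjusted p = 0.582). Its higher RISC signal thus stood beside a higher mRNA level, and the interval of the difference includes 0. Sqstm1 had a difference of 0.71 (95% interval -0.35 to 1.77, adjusted p = 0.469) and Ulk1 one of 0.03 (95% interval -1.41 to 1.46, adjusted p = 1). The interval for Mapk9 ran from -3.73 to 4.67. Arid4b had an adjusted p of 0.055, with nearly all of its counts in 3 libraries.

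A direct comparison of RISC with mRNA within each treatment sets the level of each message in Ago2-bound RNA beside its level in polyadenylated RNA. In control cells Sqstm1 and Gpr137b were lower in RISC than in mRNA, and no target was higher. These 2 of 6 targets stand beside 28.2% of 10170 genes called, 22.3% lower and 5.96% higher. In miR-17-5p cells Fyco1 and Lima1 were higher in RISC and Sqstm1 was lower, 3 of 6 targets beside 43.5% of 10871 genes called, 21.7% higher and 21.8% lower. The medians of the targets were -0.57 in control and 0.68 in miR-17-5p cells, beside -0.69 and -0.15 for all genes. As mRNA libraries were poly(A) selected and RISC libraries were not said to be, differences between the library types include that step. Rn45s held 3.13% to 12.8% of counts in mRNA and 23.6% to 42.6% in RISC libraries. Ins1 and Ins2 together held 26.2% to 41.8% in mRNA and 0.947% to 1.97% in RISC. The ratios below therefore depend on how the 2 library types are scaled to each other. The control and miR-17-5p comparisons use different libraries, but each shares its libraries with the comparisons above.

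Sqstm1 in control cells was at 700, 601 and 656 CPM in mRNA and 192, 190 and 45.5 CPM in RISC, on the common scale of both types. RISC was lower in all 3, 4.56-fold for the means. The log2 ratio of RISC to mRNA was -2.19 ± 0.56 (edgeR adjusted p = 0.0344) and -1.78 without control number 3 (adjusted p = 0.0429). The call was lost without control number 1 or 2 (0.147 and 0.125). In miR-17-5p cells it was at 386 to 504 CPM in mRNA and 160, 122, 187 and 226 CPM in RISC. The groups did not overlap, and the log2 ratio was -1.32 ± 0.19 (95% interval -1.73 to -0.92, adjusted p = 1.5e-04). Its sign and call were the same under each alternative run.

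Gpr137b in control cells had 5.27, 14 and 9.38 CPM in mRNA and 0 counts in RISC, at least 28.1-fold lower (edgeR adjusted p = 0.0105). Without control number 1 the adjusted p was 0.0619. At 0 in all 3 control RISC libraries were 2293 genes, 20.7% of those tested in mRNA. In miR-17-5p cells Gpr137b had 5.45 to 9.25 CPM in mRNA and 15.8, 12.1, 18.2 and 13.4 CPM in RISC. All RISC values were higher than all mRNA values, a log2 ratio of 0.99 ± 0.40 that did not pass in edgeR (adjusted p = 0.0625) and passed with DESeq2 (0.0153) and limma-voom (0.0154). Groups did not overlap in the higher direction for 19.1% of all genes and in the lower for 25.7%.

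Fyco1 in control cells was at 58, 51.4 and 46.9 CPM in mRNA and 32.1, 25.2 and 20.8 CPM in RISC. The groups did not overlap, as for 39.9% of all genes in this direction, with means of 52.1 ± 5.6 and 26 ± 5.72 CPM. The log2 ratio had a 95% interval of -2.32 to 0.32 (edgeR adjusted p = 0.277), and DESeq2's Wald test called it (-1.19, adjusted p = 1.3e-05). In miR-17-5p cells the order was the reverse, with 30.1 to 43.9 CPM in mRNA and 83.5, 48.1, 72.5 and 48.4 CPM in RISC. The log2 ratio was 0.73 ± 0.22 (95% interval 0.25 to 1.21, adjusted p = 0.0183). This call was lost without miR-17-5p number 2 (adjusted p = 0.102) or 5 (0.11), the 2 libraries with the highest RISC values.

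Lima1 in control cells was at 128, 106 and 124 CPM in mRNA and 156, 152 and 126 CPM in RISC. These ranges overlapped (log2 ratio 0.28 ± 0.21, edgeR adjusted p = 0.479). In miR-17-5p cells it was at 122, 158, 231, 172 and 183 CPM in mRNA and at 296, 307, 282 and 291 CPM in RISC. The RISC values were narrow and all above the mRNA values, with a log2 ratio of 0.76 ± 0.17 (95% interval 0.39 to 1.13, adjusted p = 0.00336), called under each alternative run.

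Ulk1 in miR-17-5p cells was at 42.7 to 52.1 CPM in mRNA and at 111, 59.2, 91.4 and 40.6 CPM in RISC. RISC library 6 lay below the mRNA values and the other 3 above them. The log2 ratio was 0.64 ± 0.26 (edgeR adjusted p = 0.0666), and in control cells 0.43 ± 0.72 (adjusted p = 0.796). In miR-17-5p cells it passed with limma-voom (0.76, adjusted p = 0.0112) and, in edgeR, without miR-17-5p number 6 (0.84, adjusted p = 0.0189). Mapk9 had log2 ratios of -0.14 in control cells, with an interval of -6.58 to 6.31, and 0.50 in miR-17-5p cells, with an interval of -0.20 to 1.19, and the latter passed in edgeR without miR-17-5p number 6 (0.84, adjusted p = 0.0411). Arid4b was not tested here, and in miR-17-5p cells its RISC mean was at least 5.6-fold above the mRNA floor.

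**Figure D2:**
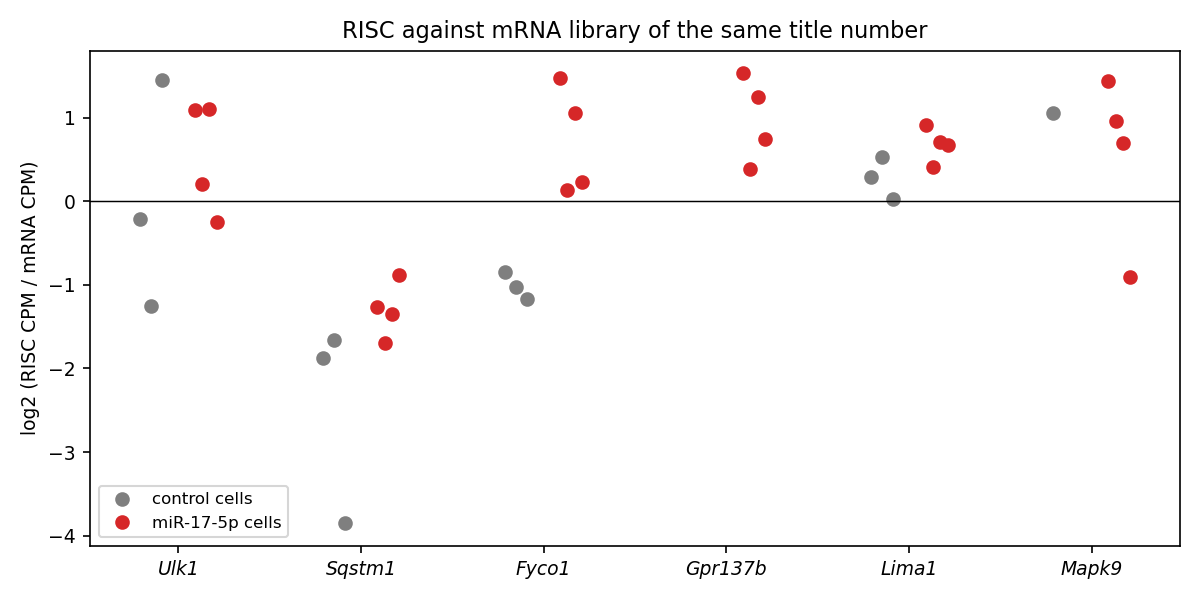
Log2 ratio of RISC to mRNA CPM (linear axis in log2 units) for 6 targets, 1 point for each title number with both library types. Libraries are joined by number only, and whether numbers mark shared cultures is not known. No point is drawn where a library had 0 counts, as for Gpr137b in control cells and Mapk9 in control numbers 2 and 3. Sqstm1 lies below 0 in all 7 points, and Fyco1 lies at -1.17 to -0.85 in control and 0.13 to 1.47 in miR-17-5p cells.

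The pathways around these targets were examined with 10 gene lists. The targets were left out of the counts of genes and were included in the medians of the lists. Around Lima1, the LIM domain proteins of actin filaments and focal adhesions rose in mRNA: 10 of 20 tested were higher and 0 lower, where 3.11% of all genes were called higher. With Lima1 counted, the median log2 fold change of this list was 0.78. Pdlim5, a scaffold at actin and Z-discs, rose from 39.3 ± 6.82 to 113 ± 26.3 CPM (log2 fold change 1.53 ± 0.20, edgeR adjusted p = 0.00136). Pdlim1, which binds alpha-actinin, rose from 46.6 ± 6.32 to 103 ± 19.3 CPM (1.14 ± 0.18, adjusted p = 0.00419). In RISC the median of the list was 0.79 and 0 of 19 passed in edgeR, with 6 at an unadjusted p under 0.05, 5 called higher by DESeq2's Wald test and 0 by limma-voom.

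Stellate cell and fibroblast markers were higher in the same groups as Lima1. Their summed level was 10220 to 17779 CPM in control and 19214 to 42535 CPM in miR-17-5p mRNA libraries, and 5348 to 11695 against 28767 to 32021 CPM in RISC. In mRNA 10 of 16 tested markers rose and 0 fell, and in RISC 6 of 15 rose. The miR-17-5p mRNA library with the lowest marker sum, library 1, had the lowest Lima1 level of its group, and library 4 had the highest of both. Other libraries did not keep this order. In miR-17-5p mRNA, library 2 had a larger sum than library 5 (33118 against 29368 CPM) but less Lima1 (149 against 163 CPM). Control RISC libraries 2 and 1 had sums of 11695 and 6342 CPM, with Lima1 at 172 and 171 CPM. Of the 17 markers, Col1a2 was at 0 counts in every group and Rgs5 in miR-17-5p RISC. The part of the stellate cell and fibroblast markers in the Lima1 values was not tested.

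**Figure D3:**
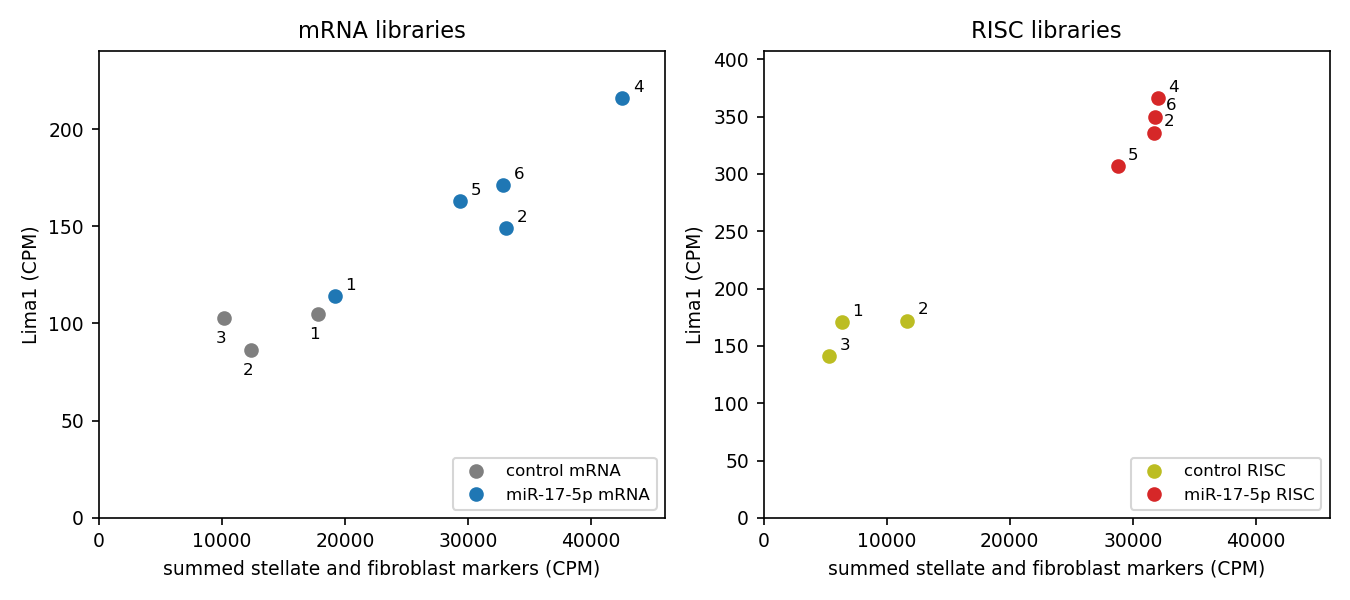
Lima1 (CPM) against the summed level of 17 stellate cell and fibroblast markers (CPM), linear axes from 0; left mRNA, right RISC libraries, each point a library with its title number. Lima1 was 86.2 to 105 CPM in control and 114 to 216 CPM in miR-17-5p mRNA libraries, and the marker sums of these groups did not overlap either.

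Genes of the other pathways did not pass the test in mRNA. Of all 11077 genes tested in mRNA, 2100 had an unadjusted edgeR p under 0.05. Of the autophagy initiation genes around Ulk1, 0 of 11 were called in edgeR and 2 had an unadjusted p under 0.05. For the membrane and LC3 conjugation machinery, which builds the autophagosome, the counts were 0 of 19 called and 6 under 0.05, and limma-voom called 1 higher. Autophagy receptors and partners of p62 gave 0 of 12 and 3. Late endosome transport and fusion genes around Fyco1 gave 0 of 14 and 0. Genes of lysosomal mTORC1 control around Gpr137b gave 0 of 20 and 3, with 1 called higher by limma-voom. DESeq2's Wald test called 0 genes of each of these 5 lists. Their medians, with the targets counted, were between -0.11 and 0.01, close to 0.01 for all genes.

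The SIN3 and histone deacetylase complex of Arid4b had 0 of 11 genes called in mRNA and 3 at an unadjusted p under 0.05. Methyl-CpG readers and DNA methyltransferases, the field of Zbtb4, gave 0 of 9 and 2, and limma-voom called 1 lower. The JNK cascade around Mapk9 gave 0 of 21 and 2, with 1 called lower by DESeq2 and by limma-voom, and a median of -0.18. Other known miR-17 family targets, many of them in the cell cycle, numbered 32 in the list. Of these, 30 were tested, 0 were called in edgeR, 6 had an unadjusted p under 0.05, and DESeq2 and limma-voom each called 1 lower. Their median was -0.15, with 19 below 0 and 11 above.

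In RISC, 0 genes of any of these lists were called in edgeR. At an unadjusted p under 0.05 there were 1 to 3 genes in each of the lists around Ulk1, Sqstm1, Fyco1, Gpr137b, Arid4b and Mapk9. There were 0 among methyl-CpG readers and 5 of 30 other known targets, beside 1899 of all 9443 genes. DESeq2's Wald test called 2 conjugation genes, 1 receptor gene, 1 late endosome gene, 1 mTORC1 gene, 3 SIN3 complex genes and 1 other target higher, and 1 JNK cascade gene lower. Limma-voom called 0 in each. Medians were 0.61 for the conjugation genes and 0.60 for the SIN3 complex, beside 0.27 for all genes, and -0.25 for the JNK cascade and 0.05 for the other known targets.

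**Figure D4:**
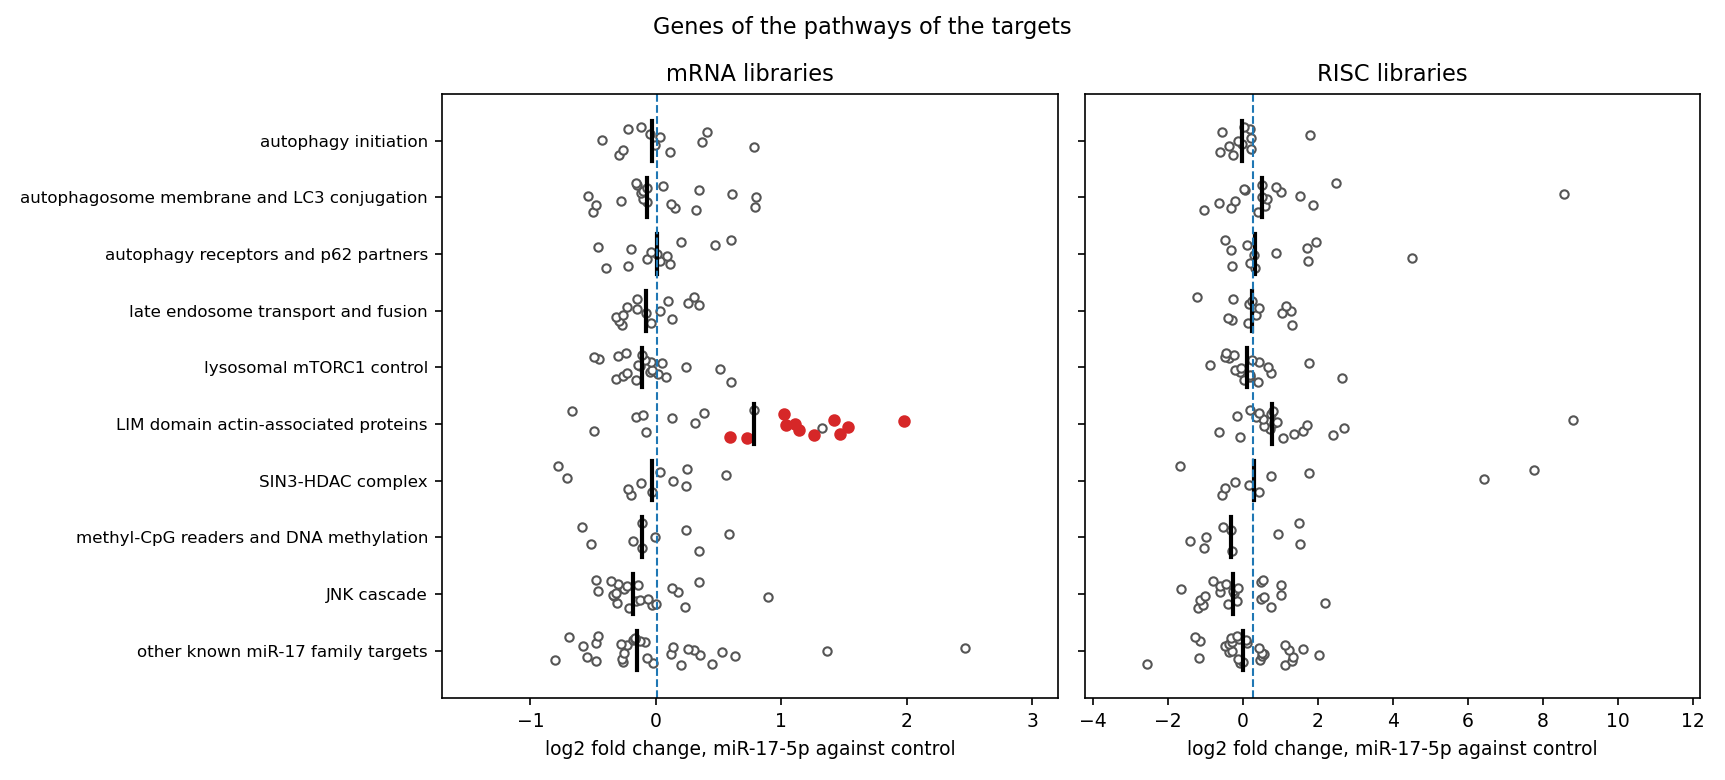
Log2 fold change of miR-17-5p against control (linear axis in log2 units) for the genes of 10 lists, targets included, in mRNA (left) and RISC libraries (right); filled points were called in edgeR, black bars are the median of the points and the dashed line is the median of all genes (0.01 and 0.27). In the RISC panel 11 genes with 0 counts in a whole group are left out. Called genes are seen only among LIM domain proteins in mRNA.

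The difference between the RISC and the mRNA change was called in edgeR for 0 to 3 genes of each list in the higher direction, where 13.0% of all genes were called higher, and for 0 in the lower. Shares above that of all genes were found for 3 of 11 SIN3 complex, 3 of 14 late endosome and 2 of 12 receptor genes. Below it were 1 of 11 autophagy initiation genes, 2 of 20 conjugation genes and 2 of 20 mTORC1 genes. So were 1 of 20 LIM domain genes, 0 of 9 methyl-CpG readers and 2 of 30 other known targets. DESeq2's Wald test called 1 initiation gene lower. The called genes with the smallest p were Wipi2 and Atg5 of the conjugation machinery, RGD1359310 (Atg101) of the ULK1 complex, Fundc1 and Bnip3 among receptors, Stx17 and Vamp8 of autophagosome fusion, Lamtor4 and Lamtor5 of the mTORC1 anchor, Sap18 and Rbbp4 of the SIN3 complex, and Fhl2. As Gpr137b did, Atg5, RGD1359310, Fundc1, Stx17, Vamp8, Lamtor4, Lamtor5 and Rbbp4 had 0 counts in all control RISC libraries. Among other known targets, Stat3 was higher by 0.82 ± 0.21 (edgeR adjusted p = 0.0184) and E2f1, also at 0 in control RISC, passed as well. The JNK cascade had 0 of 21 called, 0 at an unadjusted p under 0.05 and a median of -0.20, and DESeq2's Wald test called 1 lower. With limma-voom 0 genes of any list were called.

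In miR-17-5p cells each list but that of the other known targets had edgeR calls in both directions. Over all genes 21.7% were higher and 21.8% lower in RISC. Higher and lower were 3 and 1 of 11 initiation, 2 and 5 of 20 conjugation and 4 and 1 of 12 receptor genes. For late endosome, mTORC1 and SIN3 genes they were 5 and 3 of 14, 3 and 5 of 20, 3 and 2 of 11. For LIM domain, methyl-CpG and JNK genes they were 7 and 6 of 20, 5 and 1 of 9, 10 and 3 of 21. Genes named below were picked per direction. In miR-17-5p cells the LC3 family messages Gabarap and Gabarapl1, small proteins that are coupled to the autophagosome membrane, were lower in RISC: Gabarap was at 289 ± 25.6 CPM in mRNA and 41.3 ± 11.7 in RISC (log2 ratio -2.80 ± 0.20, edgeR adjusted p = 1.4e-06). Wipi1 and Atg16l1, from the same list, were higher, by 1.05 ± 0.21 and 1.03 ± 0.23. Kif5b, the kinesin motor that FYCO1 binds, was higher in RISC in control (2.25 ± 0.28) and miR-17-5p cells (1.89 ± 0.14), whereas Rab7a, the late endosome GTPase, was lower in both (-1.20 ± 0.17 and -0.88 ± 0.17). Ulk2, the paralog of Ulk1, was higher by 1.80 ± 0.29 and 1.24 ± 0.18. Wdfy3, a partner of p62, was higher by 1.16 ± 0.23 and 1.20 ± 0.20, the opposite direction from Sqstm1. Fnip2, a partner of folliculin, was higher by 2.27 ± 0.22 and 2.54 ± 0.22, and Lamtor1 and Lamtor2 were lower in miR-17-5p cells (-1.42 ± 0.16 and -2.66 ± 0.32). Within chromatin, Dnmt3a was higher by 1.88 ± 0.20 and 2.09 ± 0.24, Arid4a, the paralog of Arid4b, was higher by 1.49 ± 0.26 in miR-17-5p cells, and Sap18 had a log2 ratio of -3.36 ± 0.26. Mapk8, which encodes JNK1, was higher in control cells (2.72 ± 0.48) and Map3k1, a kinase upstream of JNK, in both (2.57 ± 0.31 and 2.73 ± 0.18).

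In edgeR the other known targets stood higher in RISC than in mRNA in miR-17-5p cells for 21 of 30 and lower for 0, with a median log2 ratio of 1.32, where 21.7% of all genes were called higher and 21.8% lower. DESeq2's Wald test and limma-voom each called 23 of these targets higher and 2 lower. Of all genes DESeq2 called 2307 higher and 3001 lower, and limma-voom 2597 and 3083. In control cells edgeR called 3 of 28 other known targets higher and 1 lower, with a median of 0.58. Of all genes 5.96% were called higher and 22.3% lower there, with a median of -0.69. DESeq2's Wald test called 6 other known targets higher and 3 lower in control cells, beside 977 and 2765 of all genes. Map3k2 (2.68 ± 0.26) and Jak1 (1.36 ± 0.16) had the smallest p in miR-17-5p cells. Lima1 and Fyco1 were on the same side as these genes and Sqstm1 on the opposite side. For Sqstm1 the RISC level was thus below the mRNA level with and without the mimic.

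Genes with the most similar profile were sought by the root mean square difference of log2 CPM over 15 libraries, each profile centred on its mean, among genes whose mean log2 CPM was 4 or more. Nearest to Lima1 were Actn1 (0.23) and Kpnb1 (0.25), against a median of 1.04 over 5134 genes. Nearest to Ulk1 were Eps15l1 (0.31) and Nup214 (0.34), to Sqstm1 Tmed3 (0.29) and Prpf19 (0.35), and to Fyco1 Inpp5b (0.26) and Dab2ip (0.29). Gpr137b, with its 3 libraries at 0, had more distant neighbours, Tspyl1 (0.68) and Dhx16 (0.88). The nearest to Mapk9 were Sv2a (0.43) and Ttc7b (0.45), and to Arid4b Frmd4a (0.64) and Tnfaip1 (0.65). These distances are descriptions over libraries that share depth and type.

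Counting used no strand, so reads of overlapping genes cannot be told apart. In the GRCr8 annotation, used for names only, Fyco1 overlapped with Cxcr6, which had 0 to 4 counts in any library, and with a pseudogene. Mapk9 overlapped with Mir336, at 0 counts, and with a long noncoding RNA, and Lima1 with 2 long noncoding RNAs. Ulk1, Sqstm1, Gpr137b and Arid4b overlapped with no annotated gene.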

How the data were processed

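Each library came as a table of raw counts per gene that the authors deposited, made by aligning reads to rn5 (TopHat2 2.0.10, Bowtie2) and counting with HTSeq, as the submitters' processing notes list them. Library preparation kept no strand and reads were single-end, per the labels. Lines for reads not assigned to a gene were left out; alignments that were not unique amounted to 15% to 31.2% and ambiguous ones to 0.151% to 0.454%.

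Groups came from sample titles; the labels speak of biological replicates, but their numbers differ between titles and descriptions. The targets, the gene lists and the tests were chosen with earlier results of these data known. All genes were tested with edgeR 4.0.16 in R 4.3.3 (TMM factors, filterByExpr, robust two-sided quasi-likelihood F-test), Benjamini-Hochberg adjustment over all genes tested and calls at an adjusted p under 0.05, in 5 comparisons. A fit over both library types assumes 1 spread for both. CPM are counts over TMM-scaled library sizes. A fold against a group at 0 uses a floor of 3 counts per library, averaged over the group. Genes named besides the targets were, per list and comparison, up to 2 called genes per direction with the smallest p, and the 2 nearest genes per target. Atg101 was found as RGD1359310.

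As alternatives, DESeq2 size factors, upper quartile factors, tables with no filter or with at least 50 counts on average, DESeq2 1.42.0's Wald test, limma-voom (limma 3.58.1, quality weights), a replicate block and leaving out single replicates were run; in fits of both library types, both libraries with a number were dropped. No libraries of a group held identical values. Scripts were tested on simulated data. Gene coordinates and target sites in rn5 were not analysed here.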

Additional observations from a re-analysis of the deposited data

Results flagged for a closer look

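Fyco1 changed differently with miR-17-5p in the 2 library types: the log2 fold change in RISC minus that in mRNA was 1.56 (edgeR adjusted p = 0.0342), with all 4 miR-17-5p RISC values above the 3 control values and 4 of 5 miR-17-5p mRNA values below the control mRNA range. Gpr137b differed as well, with a fitted difference of 10.22 (edgeR adjusted p = 1.5e-04). Because Gpr137b had 0 counts in all control RISC libraries, this fitted value depends on the prior count and is no bound. In the same test 13.4% of 11418 genes passed. No library was far enough from the rest of its group to stand out in the 13 groups of 4 or 5 values examined. These were miR-17-5p groups. Control groups, with 3 libraries each, were not examined in this way, and control RISC held distant values for Ulk1, Sqstm1 and Mapk9.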

How the results depend on the processing

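Over all targets and comparisons, 346 values kept direction and side of the threshold under an alternative, 25 lost a call, 18 gained one and 18 changed sign. In mRNA, DESeq2's Wald test called 2 targets and 887 genes, and limma-voom 1001 genes (429 in edgeR). In RISC, DESeq2 called 3 targets and 1305 genes and limma-voom 20 genes (35 in edgeR). For the difference, 1 target was called without filtering, and limma-voom called 0 targets and 0 genes (1334 at an unadjusted p under 0.05). For RISC against mRNA in control cells, a mean of at least 50 counts left 0 targets and 1254 genes called. In miR-17-5p cells limma-voom called 5 targets. The cause was not tested.

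With 1 replicate left out, targets called ranged from 0 to 2 in mRNA, 0 to 2 in RISC, 1 to 3 for the difference, 0 to 2 for RISC against mRNA in control and 2 to 6 in miR-17-5p cells. Genes called ranged from 85 to 816 in mRNA, 0 to 1225 in RISC, 1155 to 2452 for the difference, 0 to 3114 in control and 3770 to 4780 in miR-17-5p cells. The 0 in control cells came without control number 1, where edgeR left 3565 genes at an unadjusted p under 0.05. The 0 in RISC came without miR-17-5p library 2, 5 or 6 (1139 to 1268 genes at an unadjusted p under 0.05). In mRNA, 85 genes were called without control library 3.

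Signs turned only where no call was made. Over the replicates left out, the log2 fold change in mRNA ranged from -0.46 to 0.25 for Gpr137b and from -0.00 to 0.46 for Mapk9. In RISC, Ulk1 ranged from -0.67 to 0.84 and Sqstm1 from -0.12 to 0.62. The difference ranged from -0.18 to 1.30 for Ulk1 and from -0.02 to 10.84 for Mapk9, and RISC against mRNA in control cells from -0.67 to 0.79 for Ulk1 and from -9.94 to 0.50 for Mapk9. The extreme Mapk9 values came without control number 1, the control RISC library that held its counts, and depend on the prior count. In mRNA Gpr137b was 0.25 without control library 2, and Mapk9 was -0.00 without control library 3. In RISC Ulk1 was 0.55 with limma-voom and 0.84 without control library 3, and Sqstm1 -0.12 without control library 3. For the difference, Ulk1 was -0.14 with DESeq2 size factors and its Wald test, -0.03 with upper quartile factors, and -0.14, -0.18 and -0.09 without control number 2, miR-17-5p number 2 and miR-17-5p number 5, and Mapk9 was -0.02 without control number 2. For RISC against mRNA in control cells, Ulk1 was -0.24 with limma-voom and -0.67 without control number 3, and Mapk9 was 0.50 and 0.18 without control numbers 2 and 3.

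Deviations of same-numbered libraries from their group means correlated at -0.179 and -0.0581 in mRNA. Between library types they correlated at -0.0105 to 0.0294 in control cells and -0.0132 to 0.0488 in miR-17-5p cells. Differently numbered libraries gave -0.0456 to 0.0746 between types in miR-17-5p cells. With so few libraries per group, these values cannot decide whether numbers mark shared cultures. With a replicate block 0 targets and 0 genes were called in mRNA (461 genes at an unadjusted p under 0.05), 0 targets and 30 genes for the difference, 0 targets and 338 genes for RISC against mRNA in control cells, and 2 targets and 3642 genes in miR-17-5p cells. With the block, Mapk9 in mRNA was -0.19 and Ulk1 in RISC against mRNA of control cells -0.02. In RISC no block could be fitted because the groups share only number 2.

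The median log2 fold change of all genes for miR-17-5p against control in RISC was 0.27 with TMM, 0.19 with DESeq2 size factors and 0.22 with upper quartile factors, and 1.89 in the limma-voom model. For RISC against mRNA in control cells this median was -0.69 with TMM. It ranged from -0.30 with a mean of at least 50 counts to -2.89 in the limma-voom model. Counts of 0 in control RISC libraries limited Gpr137b, Mapk9 and Arid4b, and the floor of 3 counts was 0.193 to 0.564 CPM in control RISC libraries.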
